A study of Homo sapiens with 6 samples.

Results

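The matrix proteases and the urokinase system were examined through 9 genes of tumor invasion: the collagenases MMP1 and MMP13, the gelatinases MMP2 and MMP9, the stromelysins MMP3 and MMP10, the membrane-bound MMP14, urokinase (PLAU) and its receptor (PLAUR). They were chosen by name, from 24135 protein-coding and lncRNA genes in all. For each of them, the regions called for histone H3 lysine 27 acetylation (H3K27ac) and histone H3 lysine 4 trimethylation (H3K4me3) were taken where they overlapped the gene body or the 5 kb upstream of it in hg19, and were compared between siRNAs.

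The data came from HSC3, an established oral squamous cell carcinoma (OSCC) cell line. Cells received either a control siRNA (siCONT) or an siRNA against the lncRNA DLEU1 (siDLEU1) and were collected after 72 h. ChIP-seq was performed with 1 library for each siRNA and mark, which gives no replicate to compare with and no p-value, and the effect of the siRNA cannot be told apart from a difference between libraries. The RNA of DLEU1 was not measured in these libraries, which leaves its depletion unchecked here.

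Matrix metalloproteinases (MMPs) are zinc-dependent enzymes that cut collagen, gelatin and other proteins around the cell, and most are secreted as inactive precursors. Urokinase, bound to its receptor on the cell surface, turns plasminogen into plasmin, which degrades fibrin and can activate MMP precursors. In squamous carcinomas both systems are known for their part in invasion. H3K4me3 is found mainly at promoters, and H3K27ac at active promoters and enhancers.

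The lists held 19705 H3K27ac regions in siCONT cells and 17672 in siDLEU1 cells, and 58582 and 56943 H3K4me3 regions. Fold enrichment is not comparable between lists, so each region was given its percentile by fold enrichment within its own list, where 100 is the strongest region and 0 means that no region was called. The whole number of fragments at each summit was solved from its fold enrichment and p. The H3K27ac library of siDLEU1 cells came out 1.37 times as deep as that of siCONT cells, and the H3K4me3 library 0.785 times. Among regions found with both siRNAs, the median ratio of summit fragments, siDLEU1 over siCONT, was 0.80 for H3K27ac and 0.889 for H3K4me3. Of 6 squamous epithelium markers, 6 had H3K27ac within 1 kb of a TSS in siCONT cells and 5 in siDLEU1 cells, while 1 of 4 leukocyte markers (CD14) and 1 of 4 fibroblast markers (COL1A1) did so in both.

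H3K27ac was called at 4 of the 9 genes, PLAU, MMP14, PLAUR and MMP2, in both siCONT and siDLEU1 cells. H3K4me3 was called at 6 genes in siCONT cells, the same 4 with MMP9 and MMP10, and at 5 in siDLEU1 cells, where MMP9 had no region left. No region of either mark was called at MMP1, MMP3 or MMP13. Among all genes, 59.7% had an H3K27ac region and 66.4% an H3K4me3 region in at least 1 of the lists. All regions counted for these genes lay over 1 kb from the TSS of any other gene.

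PLAU showed the largest difference of the 9 genes in covered length and percentile of H3K27ac. In the ratio of summit fragments relative to the median of matched regions, MMP2 and PLAUR differed more. The MMP2 region was near the limit of detection, where a low ratio could not be seen. Against the recovered depth of the libraries, the median of all matched H3K27ac regions was 0.584. On that scale PLAU had the ratio furthest from 1, at 0.411. It encodes urokinase, the serine protease that activates plasminogen, and lies at chr10:75668935-75677254 on the plus strand. In siCONT cells, 1 H3K27ac region ran from 75670138 to 75674696, over 4559 bp, from 752 bp before to 3806 bp after the canonical TSS at 75670890 and across exons 1 to 9 of 11. Only 13 of the 19705 regions in that list, itself included, were at least as wide. The region of siDLEU1 cells spanned 75670418 to 75672014, over 1597 bp, and reached no further than exon 4. The acetylated stretch was thus shorter at both ends, and most of the difference lay downstream of the canonical TSS. Within 1 kb of any annotated PLAU TSS, the covered length differed by -0.25 on the log2 scale, against -1.51 over the gene body and 5 kb upstream.

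**Figure D1:**
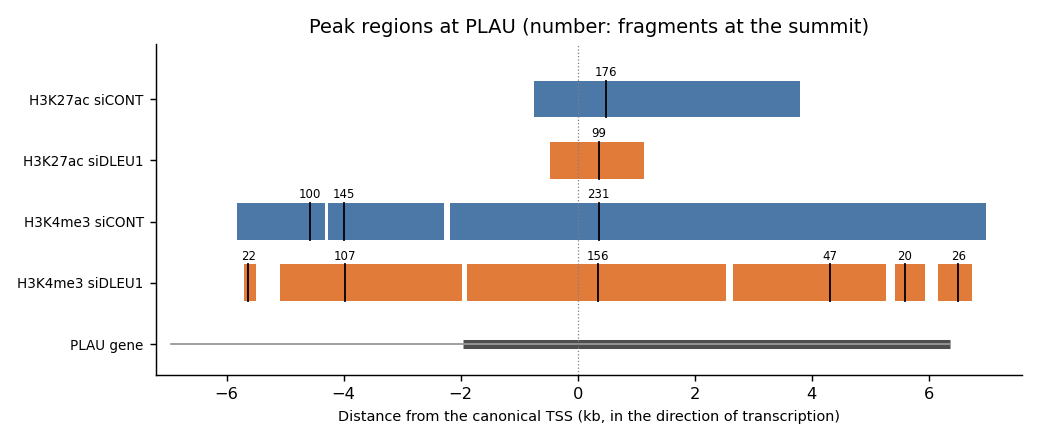
Regions of H3K27ac and H3K4me3 at PLAU by distance from its canonical TSS in kb, in the direction of transcription. Boxes are called regions, black lines their summits with the number of fragments there, the dark bar the gene and the thin line its window; the H3K27ac region is shorter in siDLEU1 cells, with 99 fragments at the summit against 176.

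The covered length of H3K27ac at PLAU in siDLEU1 cells was 0.350 times that in siCONT cells, and 3.04% of the genes covered in both lists had a ratio as low. Its percentile was 99.3 in siCONT cells and 65.4 in siDLEU1 cells, a change of -33.9 points, and 6.49% of genes with a region had a change as low. Ranked by summit fragments it stood at 97.2 and 79.1, a smaller change of -18.2 points, and the change by fold enrichment was -54.3 points among regions with a −log10 q of 10 or more. Its fold enrichment over local background was 39.7 in the first list and 11.8 in the second. At the summit, 176 fragments (95% Poisson interval 151 to 204) were recovered in siCONT cells and 99 (80.5 to 121) in siDLEU1 cells. Relative to the median of the matched regions, this ratio was 0.703 (95% interval 0.544 to 0.905), and 3.0% of the 15334 matched regions were as low. Against the recovered depth it was 0.411 (0.318 to 0.529), where the median of all matched regions was 0.584. All intervals given here cover counting error only. The local background used for the region was 0.505 fragments in siCONT cells and 1.0 in siDLEU1 cells, in units scaled to the control, and its part in the lower fold enrichment was not tested.

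PLAU has an annotated start at 75670368, which is 522 bp upstream of the canonical one. The H3K27ac region of siCONT cells covered both starts, whereas that of siDLEU1 cells began 50 bp downstream of the upstream start. The bases before each start are shown because the upstream edge of the acetylated region differed across the first stretch, while the second lay under H3K27ac with both siRNAs. These and the other promoter sequences are from RefSeq and were matched base for base to GRCh37. In the 300 bases around the canonical start, 70.0% were G or C and 28 CpGs were counted, against 48.7% and 5 CpGs around the upstream start. Neither window held the AP-1 element TGANTCA, its longer form TGANNTCA or TATAAA on either strand, motifs found in 7.71%, 11.5% and 11.5% of 35116 promoter windows of the same length.
PLAU, upstream start, plus strand, chr10:75670168-75670367: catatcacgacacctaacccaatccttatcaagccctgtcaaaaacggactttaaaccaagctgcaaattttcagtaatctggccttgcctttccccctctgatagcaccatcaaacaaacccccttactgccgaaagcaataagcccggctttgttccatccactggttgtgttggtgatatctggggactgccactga
PLAU, canonical start, plus strand, chr10:75670662-75670861: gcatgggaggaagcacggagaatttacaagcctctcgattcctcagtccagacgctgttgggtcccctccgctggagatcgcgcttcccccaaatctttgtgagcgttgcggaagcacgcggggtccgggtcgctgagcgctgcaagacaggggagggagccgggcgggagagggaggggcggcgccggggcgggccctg

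H3K4me3 covered nearly the whole of PLAU with both siRNAs. In siCONT cells, 3 regions of 1502, 1970 and 9158 bp covered 12021 bp, or 90.2% of the gene body and 5 kb upstream. The widest ran from 75668706 to 75677863, past the end of the gene, and only 10 of the 58582 regions in that list, itself included, were at least as wide. In siDLEU1 cells, 6 regions of 212 to 4421 bp covered 11107 bp, or 83.4%. The widest region was thus split into shorter ones, while the covered length changed little, with a ratio of 0.924. Upstream the calls merged instead, as 1 region of 3112 bp in siDLEU1 cells overlapped both of the shorter siCONT regions. The H3K4me3 library of siDLEU1 cells was 0.785 times as deep, and the part of depth in the splitting was not tested. The percentile of the strongest region was 99.9 in siCONT cells and 94.8 in siDLEU1 cells. Summits held 231 fragments (202 to 263) and 156 (132 to 182), a ratio of 0.760 (0.616 to 0.935) relative to the median of matched regions, and 21.1% of the 44741 matched regions were as low. The local background was 0.532 in siCONT cells and 1.0 in siDLEU1 cells at this summit too.

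Between the H3K4me3 regions of siDLEU1 cells lay a gap at chr10:75668913-75668996, from 1977 to 1894 bp before the canonical TSS, which a single region spanned in siCONT cells. The gap, of 84 bp, held the first of 5 annotated PLAU starts, at 75668935. It was shorter than the fragment length of 186 bp in that library. It is shown because AP-1 elements lie in and beside it, and PLAU is a textbook target of AP-1. Capitals mark matches to TGANNTCA or TGANTCA, which read the same on both strands. The longer form, at chr10:75668918-75668925, was inside the gap. The shorter, at chr10:75669000-75669006, was 4 bp past its end, in an annotated UTR. A match describes the letters only, and no binding was measured. Both stretches are from GRCh37.
PLAU, across the upstream edge of the gap, plus strand, chr10:75668860-75668934: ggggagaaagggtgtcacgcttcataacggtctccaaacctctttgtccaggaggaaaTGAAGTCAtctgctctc
PLAU, beside the gap, plus strand, chr10:75668990-75669016: gggagcaacaTGAATCAtgacggtccc

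PLAUR encodes the cell surface receptor that anchors urokinase, and lies at chr19:44150247-44174699 on the minus strand. Its H3K27ac was weak with both siRNAs. In siCONT cells, a region of 520 bp lay in intron 1, 653 to 1172 bp after the canonical TSS at 44174321, with 38 summit fragments and a percentile of 29.3. Another of 283 bp covered the TSS and part of exon 1, with 28 fragments and a percentile of 7.35. In siDLEU1 cells, a region of 694 bp in intron 1 with 49 fragments had a percentile of 40.5, and none was called over the TSS. The covered length was 803 bp and 694 bp, a ratio of 0.864 (-0.21 on the log2 scale), and the strongest region stood 11.3 points higher in siDLEU1 cells. The length turned to 0.42 on the log2 scale with a −log10 q of at least 10 or equal numbers of regions, and was -0.87 with regions within 1 kb stitched, so it had no settled direction. Relative to the median of matched regions, the intron 1 region had 1.61 times the fragments (1.03 to 2.53) in siDLEU1 cells, and 2.90% of matched regions were as high. Against the recovered depth the ratio was 0.942 (0.604 to 1.48), so its direction depended on the reference.

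H3K4me3 at PLAUR differed little in extent. It covered 1882 bp in 3 regions in siCONT cells and 2067 bp in 4 regions in siDLEU1 cells, a ratio of 1.10. The strongest, in intron 1, had percentiles of 84.5 and 82.0 and summits of 87 and 70 fragments. The TSS itself was covered in both lists, by a separate region of 648 bp with 37 fragments in siCONT cells and by the strongest region in siDLEU1 cells, which measured 1266 bp against 808 bp. Weaker regions lay 5144 to 4719 bp before the TSS in siCONT cells and 5089 to 4777 and 4598 to 4413 bp before it in siDLEU1 cells. The promoter window was 64.0% G or C and held TGANTCA once, 186 bp before the TSS, where H3K4me3 was called with both siRNAs and H3K27ac with neither. Capitals mark this match.
PLAUR, minus strand, chr19:44174491-44174517: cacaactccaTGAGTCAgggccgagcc

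MMP14 encodes a membrane-type MMP that cleaves collagen at the cell surface and activates the MMP2 precursor. It lies at chr14:23305769-23318250 on the plus strand, and, with PLAU, it was the most heavily marked of the 9 genes. Its H3K27ac hardly changed in extent. The region ran from 23305730 to 23308275 in siCONT cells and from 23305768 to 23308183 in siDLEU1 cells, from just before the canonical TSS through exon 1 into intron 1, with lengths of 2546 and 2416 bp and a ratio of 0.949. Among all regions of the lists, 1.55% and 0.572% were as wide. Summits held 200 fragments (173 to 230) and 149 (126 to 175), or 0.931 times (0.748 to 1.16) relative to the median of matched regions. This ratio was close to that of H3K27ac regions in general, and 33% of matched regions were as low. Against the recovered depth it was 0.544 (0.437 to 0.676), where the median of all matched H3K27ac regions was 0.584.

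The percentile of MMP14 by fold enrichment nevertheless went from 76.0 in siCONT cells to 92.8 in siDLEU1 cells, a change of 16.8 points. The local background of the region was 2.0 in siCONT cells and 1.0 in siDLEU1 cells. Ranked by summit fragments, the region stood at 99.2 and 98.2, a change of -1.03 points, so its higher rank was seen with fold enrichment and was reversed with fragments. H3K4me3 covered 6166 bp in siCONT cells and 4267 bp in siDLEU1 cells. The ratio of 0.692 fell just outside the 1.5-fold difference used here to call a gene lower. The main region had percentiles of 99.7 and 99.1 and summits of 237 and 224 fragments, and a region of 510 bp over exon 10, with 28 fragments, was called in siCONT cells only. The bases before the MMP14 start lay under H3K4me3 in both lists, while H3K27ac began 64 and 26 bp before the canonical TSS, within this stretch. The promoter window was 55.0% G or C and held none of the 3 motifs.
MMP14, plus strand, chr14:23305585-23305784: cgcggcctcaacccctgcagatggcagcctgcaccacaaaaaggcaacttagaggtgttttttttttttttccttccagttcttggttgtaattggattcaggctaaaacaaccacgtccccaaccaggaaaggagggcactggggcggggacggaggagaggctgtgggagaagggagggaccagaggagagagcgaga

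MMP2 encodes gelatinase A, which degrades gelatin and basement membrane collagen. The gene lies at chr16:55423612-55540603 on the plus strand. Its longest annotated transcripts begin far upstream of the canonical TSS at 55513110, so the window measured 121992 bp. Both marks covered little of it, 0.239% and 0.216% for H3K27ac and 0.955% and 1.67% for H3K4me3. The H3K27ac region was over exon 1, 291 bp long with 17 fragments (9.90 to 27.2) in siCONT cells and 264 bp long with 28 fragments (18.6 to 40.5) in siDLEU1 cells. It ranked near the bottom of both lists, at 2.97 and 7.65. Relative to the median of matched regions the fragments were 2.06 times as many (1.09 to 4.0), a ratio that 0.828% of matched regions reached, and against depth 1.20 times (0.636 to 2.34). The fewest fragments of any region called at the genome background were 13 in siCONT cells and 19 in siDLEU1 cells, so this region was close to the limit of detection in siCONT cells. With 17 fragments there, it could be matched only to a region with more. Its ratio relative to the median was thus bound to lie above 1, and cannot show a gain.

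H3K4me3 at MMP2 was higher in siDLEU1 cells. It formed a pair of regions from 8442 to 7117 bp before the canonical TSS in siCONT cells, of 744 bp with 61 fragments and 421 bp with 33. In siDLEU1 cells they measured 1199 bp with 83 fragments and 835 bp with 44. The covered length was 1165 bp against 2034 bp, a ratio of 1.75, and the percentile of the stronger region went from 71.1 to 87.3, by 16.1 points. Relative to the median of matched regions the stronger region had 1.53 times the fragments (1.09 to 2.17) and the weaker 1.5 times (0.934 to 2.43). Of all matched H3K4me3 regions, 13.8% had a ratio as high as that of the stronger one. Both regions lay within the longer transcripts, and no H3K4me3 region was within the canonical transcript and 5 kb upstream.

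MMP9 encodes gelatinase B, and lies at chr20:44637547-44645200 on the plus strand. In siCONT cells, 4 H3K4me3 regions lay upstream of its TSS, between 4625 and 515 bp before it, and covered 1544 bp. They were of 450, 649, 209 and 236 bp, with 48, 42, 34 and 32 fragments. All were of low to middling rank, with percentiles from 14.2 to 42.2. In siDLEU1 cells none was called, and the nearest region was 12.4 kb upstream. With a −log10 q of at least 10, none of the siCONT regions remained, so the loss rests on weak regions. The fewest fragments of a region called at the genome background of H3K4me3 in siDLEU1 cells were 14. That limit need not hold at MMP9, where the local background in siCONT cells was 0.80 to 2.0, above the genome background of 0.532. No H3K27ac region was called at MMP9, the nearest being 36.4 kb upstream in siCONT cells and 36.5 kb in siDLEU1 cells.

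**Figure D2:**
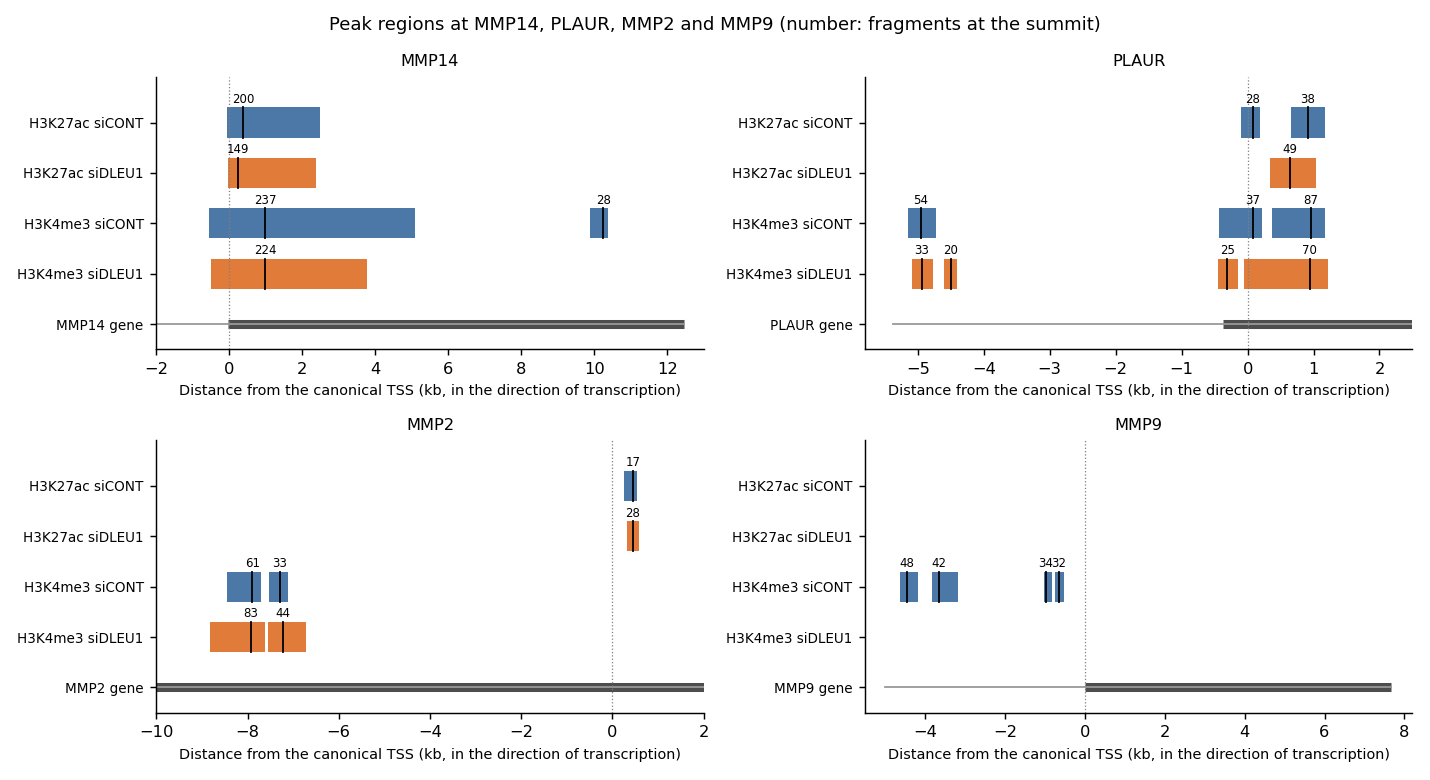
Regions of H3K27ac and H3K4me3 at MMP14, PLAUR, MMP2 and MMP9 by distance from the canonical TSS in kb, in the direction of transcription. Boxes are called regions (blue siCONT, orange siDLEU1), black lines their summits with the number of fragments there, and dark bars the genes; MMP14 keeps its region of H3K27ac, MMP2 has longer H3K4me3 regions in siDLEU1 cells, and the 4 regions of MMP9 are in siCONT cells only.

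The other 4 genes lie in the MMP cluster of chromosome 11, all on the minus strand: MMP10 at chr11:102641233-102651359, MMP1 at chr11:102660132-102668891, MMP3 at chr11:102706532-102714340 and MMP13 at chr11:102813724-102826461. MMP1 and MMP13 encode interstitial collagenases, which cut fibrillar collagen, and MMP3 and MMP10 stromelysins, which cut proteoglycans and activate other MMPs. MMP10 had 1 small H3K4me3 region in each list, and these did not overlap. In siCONT cells it measured 200 bp, 3839 to 3640 bp before the TSS, with 21 fragments and a percentile of 9.72. In siDLEU1 cells it measured 257 bp, 2973 to 2717 bp before the TSS, with 17 fragments and a percentile of 7.63. These were among the weakest regions of their lists, and no position was shared.

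The promoter of MMP10 is shown because it carries TGANTCA and TATAAA, motifs for which the stromelysins and collagenases are known. No mark was called at its TSS. It also held TGANNTCA, found in 11.5% of all promoter windows. Capitals mark, in order, TGANTCA at 67, TGANNTCA at 51 and TATAAA at 31 bp before the TSS. They do not overlap. The window was 36.3% G or C with 2 CpGs, and 94.3% of all promoter windows were at least as rich in G and C. At MMP14, PLAU and PLAUR, where marks were called at the TSS, the canonical windows were richer in G and C. Promoter sequences were matched for these 4 of the 9 genes.
MMP10, minus strand, chr11:102651360-102651559: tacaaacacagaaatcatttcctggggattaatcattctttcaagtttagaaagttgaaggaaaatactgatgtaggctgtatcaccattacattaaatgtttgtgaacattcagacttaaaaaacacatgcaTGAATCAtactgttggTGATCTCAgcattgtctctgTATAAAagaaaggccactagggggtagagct

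At MMP1, MMP3 and MMP13 nothing was called, and the nearest regions were given instead. The nearest H3K4me3 region was 13.7 kb from the TSS of MMP1 in siCONT cells and 14.6 kb in siDLEU1 cells, on the downstream side, and was the region counted for MMP10. For MMP3 it was 9.70 and 9.82 kb upstream, with percentiles of 71.7 and 76.8, and so lay outside the 5 kb used here. For MMP13 it was 42.9 and 43.1 kb downstream. The nearest H3K27ac regions were farther, 50.7 and 50.8 kb for MMP1, 96.1 and 96.3 kb for MMP3 and 135 kb for MMP13 in both lists. Over the whole cluster of 9 MMP genes, a span of 435 kb chosen after these values were seen, 1 H3K27ac region was called with each siRNA, of 407 bp in siCONT cells and 217 bp in siDLEU1 cells. H3K4me3 was called in 17 regions over 8366 bp in siCONT cells and 18 regions over 8523 bp in siDLEU1 cells. All of chromosome 11 held 1006 and 937 H3K27ac regions and 2949 and 2868 H3K4me3 regions in siCONT and siDLEU1 cells. The H3K4me3 of the cluster was alike in number and total length, but not in its strongest or widest region. The highest percentile was 94.9 in siCONT cells and 87.9 in siDLEU1 cells, and the widest region 1571 and 846 bp.

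**Figure D3:**
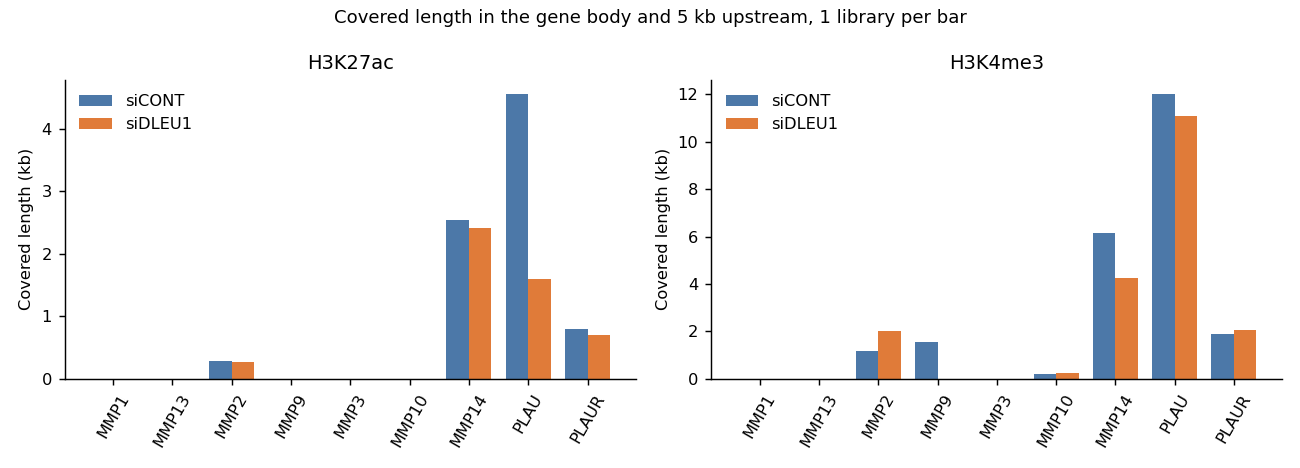
Length covered by called regions in the gene body and 5 kb upstream of each of the 9 genes, in kb, with 1 library per bar and no error bars. H3K27ac is on the left and H3K4me3 on the right; PLAU has 4559 bp of H3K27ac in siCONT cells and 1597 bp in siDLEU1 cells, and MMP1, MMP3 and MMP13 have no bar.

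The counts over the 9 genes were read against the same counts over all genes with a region. In covered length of H3K27ac, 1 gene (PLAU) was at least 1.5-fold lower in siDLEU1 cells and 0 were higher, where 32.3% of 14414 genes were lower and 0.652% higher. In percentile of H3K27ac, 1 gene (PLAU) was at least 10 points lower and 2 (MMP14 and PLAUR) were higher, against 36.8% and 16.5% of all genes. The share of lower genes was thus not above that of genes in general, and PLAU alone was called lower by either measure. In covered length of H3K4me3, 1 gene (MMP9) was lower and 1 (MMP2) higher, against 16.9% and 10.3% of 16021 genes. In percentile of H3K4me3, the same genes were called, 1 lower and 1 higher, against 17.7% and 20.8%.

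The median change in percentile over the 9 genes, counting those with no region as unchanged, was 0 points for H3K27ac and -0.55 points for H3K4me3. Over the 4 and 6 genes with a region, it was 7.98 and -2.28 points, beside -4.72 and 0.486 points over all genes with a region. The median ratio of covered length over the same 4 and 6 genes was 0.886 for H3K27ac and 1.01 for H3K4me3, where MMP9 counted as 0. Without MMP9, the median for H3K4me3 was the 1.10 of PLAUR. Over all genes covered in both lists, which leaves out genes such as MMP9, the medians were 0.776 and 0.902. Of the H3K27ac regions at the 9 genes, 4 of 5 in siCONT cells (80.0%, 95% Wilson interval 37.6 to 96.4) and 4 of 4 in siDLEU1 cells (100%, 51.0 to 100) overlapped a region of the other list, beside 81% and 98.9% of regions at all genes. For H3K4me3, 9 of 15 (60%, 35.7 to 80.2) and 12 of 14 (85.7%, 60.1 to 96.0) did, beside 76.8% and 82.0%. Regions of 1 gene are not independent, and PLAU alone gave 3 of the 15 and 6 of the 14, so the intervals are too narrow for a comparison.

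**Figure D4:**
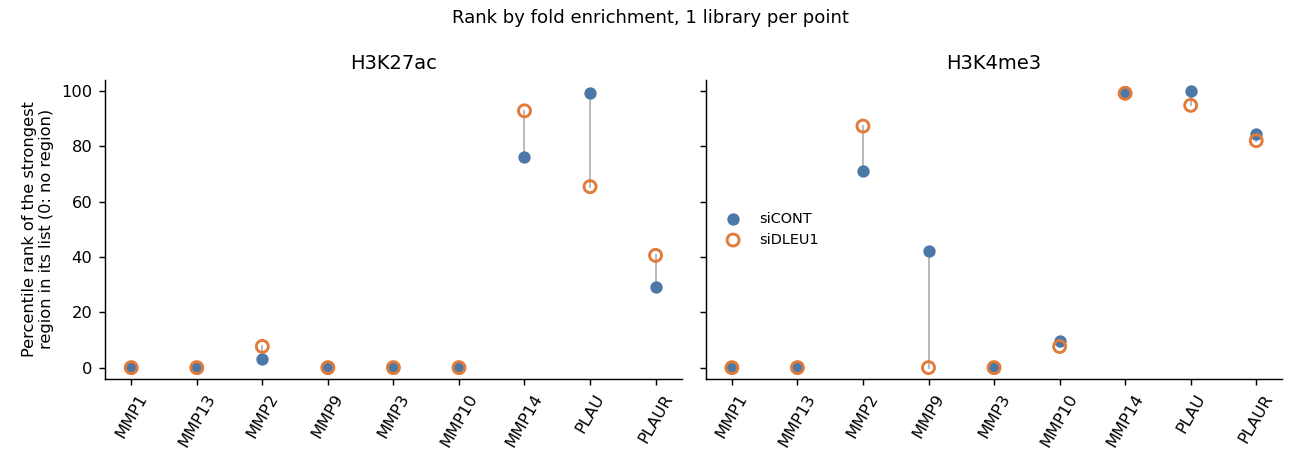
Percentile by fold enrichment, within its list, of the strongest region at each of the 9 genes, with 1 library per point (filled siCONT, open siDLEU1) and 0 where no region was called. In H3K27ac PLAU goes from 99.3 to 65.4 while MMP14 and PLAUR go up, and in H3K4me3 MMP9 goes from 42.2 to 0 while MMP2 goes up.

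**Figure D5:**
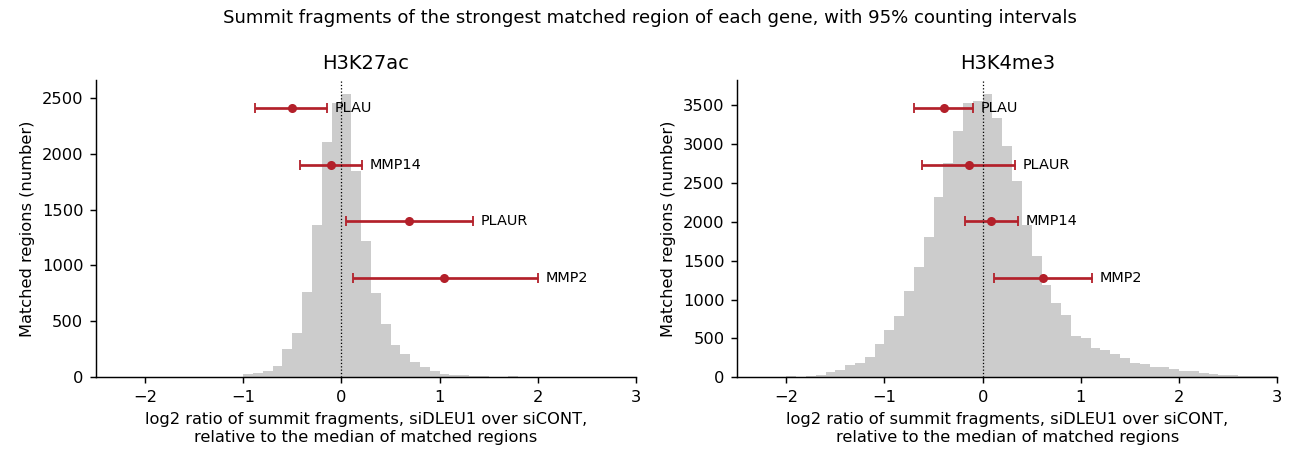
Ratio of summit fragments, siDLEU1 over siCONT on a log2 scale, of the strongest matched region at each gene, relative to the median of all matched regions at 0. Bars are 95% counting intervals, the height of the points carries no value, and the gray histogram counts all matched regions. PLAU lies to the left of 0 for both marks and MMP2 to the right. The limit of detection kept MMP2 from lying to the left in H3K27ac.

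The inhibitors and partners of these enzymes were described from a list of 30 genes. H3K27ac was called at 14 of them in both lists, and covered length was lower in 6 and higher in 0, beside the 32.3% and 0.652% of all genes. Of 5 inhibitors with H3K27ac, 4 were lower, as were 2 of 6 other MMPs, and neither of the 2 genes of the plasminogen system. SERPINE2, which encodes an inhibitor of urokinase and thrombin, went from a percentile of 44.1 to 5.87, and its covered length had a ratio of 0.349, close to the 0.350 of PLAU. TIMP1, an inhibitor of most MMPs, went from 23 to 8.45 with a ratio of 0.575. RECK, another inhibitor, went the other way, from 86.2 to 97.6, with a ratio of covered length of 0.894. It was named after its values were seen.

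Among the enzymes of that list, MMP11, a stromelysin known from the stroma of carcinomas, went from a percentile of 59.1 to 25.1, with a ratio of covered length of 0.835. MMP17, a membrane-anchored MMP, went from 48.1 to 24.2 with a ratio of 0.458. BSG, a surface glycoprotein known to induce MMPs, went from 91.4 to 71.4 with a ratio of 0.730. PLGRKT, a plasminogen receptor, went the other way, from 70.1 to 90.7, while its covered length hardly differed, with a ratio of 0.991. The median change over the 14 genes was -1.22 points, beside -4.72 over all genes. For H3K4me3, 20 of the 30 genes had a region in at least 1 list, and 2 were lower and 4 higher in covered length, beside 16.9% and 10.3% of all genes.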

How the data were processed

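ChIP-seq libraries of H3K27ac and H3K4me3 from siCONT and siDLEU1 cells were used, 1 each. Input DNA (2 libraries) was not analysed here. Reads from an Ion Proton were aligned by the authors (bowtie2, hg19), peaks were called per library by MACS2, and the lists were deposited. The deposited fold (a ratio to local background) and the −log10 of p and q are MACS2's. Its settings and control are not given in the sources used here.

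Genes were those of GENCODE 44 on GRCh37 with a curated RefSeq transcript, 19141 protein-coding and 4994 lncRNAs. Regions on chromosomes 1 to 22 and X were compared by covered length within the window, by percentile of fold enrichment within the list, by overlap of at least 1 bp, and by summit fragments, solved from fold enrichment and p (100% of regions within 0.005 of a whole number; p matched in 99.9% to 100% of a list). Recovered depths of 21.5 and 29.4 M reads (H3K27ac) and 28.4 and 22.3 M (H3K4me3) assume a genome of 2.7 Gb. The functions were tested on simulated data.

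The genes and lists were chosen with earlier results of these data known. All 9 genes were named, with the 6 related genes of largest H3K27ac change, TIMP1 among them. Another gene, which the rule names whatever its values, is not reported here. Alternatives were stricter q, stitching, equal numbers of regions, other windows, ranks, thresholds and overlaps. Python 3.11.15, numpy 2.4.6, pandas 2.3.3, scipy 1.17.1 and pysam 0.24.0 were used.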

Additional observations from a re-analysis of the deposited data

How the results depend on the processing

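No paired analysis was possible because there was 1 library per siRNA and mark. For H3K27ac, the genes higher in percentile, 2 as reported, numbered 1 with a stricter q (−log10 q of 10 or more), with regions within 1 kb stitched or with rank by −log10 p, and 0 with rank by fragments or a change of 20 points. The genes lower in covered length, 1 as reported, numbered 2 when stitched and 0 within 1 kb of a TSS, and 1 was higher when the lists were trimmed to equal numbers. For H3K4me3, the genes lower in covered length numbered 0 with the stricter q or the gene body only, and 2 within 1 kb of a TSS or with 10 kb upstream, and those lower in percentile 0 with the gene body only. The genes higher in covered length or percentile numbered 0 within 1 kb of a TSS, with the canonical transcript (chosen after seeing the data), or with a fold of 2 and 20 points. Genes with H3K27ac in siCONT and siDLEU1 cells, 4 and 4 as reported, numbered 3 and 3 with the stricter q and 3 and 4 with equal numbers. Those with H3K4me3, 6 and 5 as reported, numbered 4 and 4 with the stricter q or the gene body only. They numbered 5 and 4 with the canonical transcript, 4 and 3 within 1 kb of a TSS, and 7 and 6 with 10 kb upstream. The H3K4me3 median change was -0.92 points stitched, -0.15 by −log10 p, and 0 with the stricter q, equal numbers, the gene body only, 1 kb of a TSS or rank by fragments. Overlap of siCONT regions became 100% for H3K27ac with the stricter q, stitched or with equal numbers, and 85.7% for H3K4me3 with the stricter q, while overlap of siDLEU1 H3K4me3 regions was 42.9% when 50% of both regions was required. Against recovered depth, the H3K27ac fragment ratio was 0.411 at PLAU, 0.544 at MMP14 and 0.942, reversed, at PLAUR. The percentile change of H3K27ac was reversed at MMP14 by fragments (-1.03 points) and at PLAUR with the stricter q (-1.18 points). Of 157 alternative values for single genes, 84 were identical to the reported ones and 7 changed sign, these 2 and 5 of genes not called: log2 covered length at PLAUR (H3K27ac, 0.42 with the stricter q and with equal numbers) and PLAU (H3K4me3, 0.0074 within 1 kb of a TSS), and H3K4me3 points at MMP10 (0.51, equal numbers) and MMP14 (0.034, by fragments). The cause was not tested. The fewest summit fragments of a region called at the genome background, 13 to 19 across the lists, set what could be detected where the local background was no higher.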
